A study of Schizosaccharomyces pombe with 8 samples.

Results

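The enzymes of glycolysis are encoded in fission yeast by a small set of genes, and 10 of them were followed here by ChIP-on-chip with antibodies to histone H3 and to its lysine 4 trimethylated form (H3K4Me3): *pgi1*, *pfk1*, *fba1*, *tpi1*, *tdh1*, *gpd3*, *pgk1*, *gpm1*, *eno101* and *pyk1*. They were 10 of 5056 protein-coding genes with a value on the arrays. The genes were chosen by pathway, after H3K4Me3 was known to differ between the conditions at *eno101* and *pgk1*, so the comparison of conditions at these genes is given as a description, without a test. For each gene, the probes were averaged that overlap the gene or the 500 bp on either side of it. In all, 96 probes overlapped these windows and 84 were used, the others having been marked as outlier spots on at least 1 array. The used probes numbered between 6 per gene, at *tpi1* and *gpm1*, and 14, at *pfk1*, and 7 of them lay in a neighboring protein-coding gene.

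All cells were h+/h+ diploids homozygous for the temperature-sensitive *pat1-114* allele, heteroallelic for *ade6-M210* and *ade6-M216*, and were shifted to 34°C to inactivate Pat1 and start meiosis. For the +N condition, cells were grown in minimal medium with nitrogen, arrested in G1 with the mating pheromone M-factor, released from it and sampled 30 min after the shift. For the −N condition, cells were starved of nitrogen at permissive temperature, given ammonium chloride again and sampled 2 h after the shift. Both time points mark the start of premeiotic S phase. The +N and −N cells thus differed in pheromone treatment and in time at 34°C as well as in nitrogen, and these cannot be told apart. Each of the 4 groups (H3K4Me3 +N, H3K4Me3 −N, H3 +N, H3 −N) had 2 arrays. The study refers to biological replicates for these measurements, but the labels give only replicate numbers and do not say which cultures the 2 arrays came from, so p-values measure the spread between these arrays. For both antibodies, the study found minimal differences between −N and +N, similar in size to those between replicates. It proposed that they lay within the experimental noise. Values are log2 of ChIP over input signal with the median probe of each array set to 0, and a difference is +N minus −N.

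Replicate 1 of every group was hybridized on slide 1 and replicate 2 on slide 2. In the ChIP channel, 44.6% to 89.2% of spots were well above background on the arrays of slide 1 and 90.2% to 98.5% on those of slide 2. Of the 84 probes used at these genes, 31 were well above background on all 4 H3K4Me3 arrays and 56 on all 4 H3 arrays. A very low ratio at the other probes, mostly on slide 1, is therefore poorly measured. The red channel held ChIP DNA on all 8 arrays, so a bias between the dyes at a probe could not be separated from enrichment.

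Glycolysis converts glucose to pyruvate with a net gain of ATP. Several of its steps are reversible and can also serve gluconeogenesis, whereas the phosphofructokinase and pyruvate kinase reactions are not run in reverse. In yeasts the genes of the pathway are among the most strongly transcribed of the genome. H3K4Me3 is laid down by the Set1 methyltransferase, which travels with RNA polymerase II early in transcription, so the mark is usually highest near the 5′ end of active genes. Nucleosomes are usually sparse over promoters and, at very strongly transcribed genes, over the gene body as well.

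A sequence feature that the choice of genes did not use was shared by nearly all of them. The letters TATAAA or TATATA were found on the coding strand in the 50 bases before the annotated 5′ end of the transcript in 9 of 10 genes, against 12.7% of 5112 promoters of the same length, and began 31 to 40 bases upstream of that end. The gene without a match was *pfk1*. The search letters and the 50-base window were set after the promoters had been read. The 100 bases upstream of the 5′ end are shown for the 4 genes with the lowest mean H3K4Me3 differences and, as a contrast, for *pfk1*, from the RefSeq sequence of ASM294v3, 5′ to 3′ along the coding strand, with matches in capitals. All 5 lie on chromosome II, and none overlaps another annotated protein-coding gene.
*eno101* (chrII:2201096-2201195, plus strand): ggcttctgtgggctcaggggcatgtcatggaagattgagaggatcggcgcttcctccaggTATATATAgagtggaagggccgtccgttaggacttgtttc
*pgk1* (chrII:4159462-4159561, minus strand): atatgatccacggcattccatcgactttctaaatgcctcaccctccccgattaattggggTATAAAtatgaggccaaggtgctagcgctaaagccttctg
*tdh1* (chrII:2807495-2807594, plus strand): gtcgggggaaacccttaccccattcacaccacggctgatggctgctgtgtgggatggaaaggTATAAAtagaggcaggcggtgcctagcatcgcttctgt
*fba1* (chrII:1688221-1688320, plus strand): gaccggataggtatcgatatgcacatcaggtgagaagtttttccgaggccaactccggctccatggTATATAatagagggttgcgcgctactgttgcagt
*pfk1* (chrII:2300392-2300491, minus strand): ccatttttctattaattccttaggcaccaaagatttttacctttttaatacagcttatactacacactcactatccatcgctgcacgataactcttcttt

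The GC content of these stretches was 54% at *eno101*, 47% at *pgk1*, 56% at *tdh1*, 50% at *fba1* and 34% at *pfk1*. In the 250 bases upstream, on either strand, TATAAA was present at 5 of the 10 genes and in 44.4% of all promoters. The match at 9 of 10 genes thus holds only for the letters, strand and 50-base window used above. In the same 250 bases, TGACGT, the core of the cyclic AMP response element, was present at *pfk1*, *fba1* and *pgk1*, and in 5.52% of all promoters. CAGTCAC, the core of the HomolD box of fission yeast ribosomal protein genes, was present only at *tpi1* of the 10, and in 4.52% of all promoters. A run of 8 A or 8 T was found at none of the 10 and in 18.9% of all promoters. CCCCTC was also found at none, and in 1.7% of all promoters. The coding sequences were rich in G and C, with a median of 52.2% against 39.6% over 5113 protein-coding genes, and ranged between 45.1% at *pgi1* and 54.2% at *tdh1*. Of the 10 genes, 9 had a single exon (*gpd3* had 2), against 51.7% of all genes. Annotated noncoding RNAs overlapped 7 of the 10, a share of 70% beside 76.6% of all genes.

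Histone H3 was low over most of the genes in both conditions. The median of the 10 genes was −1.26 in +N and −1.03 in −N, against −0.20 and −0.15 over all 5056 genes. By the mean of the 4 H3 arrays, 7 of the 10 genes were among the 5% of genes with the lowest H3, and 6 among the lowest 2%. The lowest was *tdh1*, at −2.29 ± 0.15 in +N and −1.65 ± 0.18 in −N (SD, n = 2 each), with 0.257% of genes below it. Next came *fba1*, *eno101*, *pgk1*, *gpm1* and *pyk1*, with 0.593%, 0.87%, 1.15%, 1.29% and 1.86% of genes below them. From *fba1* to *pyk1*, the +N arrays of neighbors in this order overlapped. At *tpi1*, H3 stood at −1.03 ± 0.24 in +N and −0.75 ± 0.18 in −N, with 4.23% of genes below it. These levels and ranks include the 500 bp flanks. Without the flanks, 22.1% of genes lay below *gpm1*, 6.72% below *tpi1* and 2.66% below *pgk1*. At *tdh1*, *fba1*, *eno101* and *pyk1* the share was then 0.22% to 1.54%. With the flanks, *gpd3*, *pgi1* and *pfk1* were not depleted in this way. At *gpd3*, H3 was −0.39 ± 0.20 in +N and −0.39 ± 0.03 in −N. At *pgi1* it was −0.28 ± 0.04 in +N and −0.17 ± 0.10 in −N. The highest of the 10 was *pfk1*, at 0.12 ± 0.19 in +N and 0.04 ± 0.04 in −N, with 83.2% of genes below it. Of the 7 genes with the lowest H3 in this window, 6 had coding sequences of at least 50% GC, but so did *gpd3*. Coding GC was 48.5% at *tpi1* and 48.4% at *pfk1*, which had the highest H3 of the 10. The 49 other genes with such coding sequences had a median H3 of −0.40 in +N and −0.40 in −N.

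**Figure D1:**
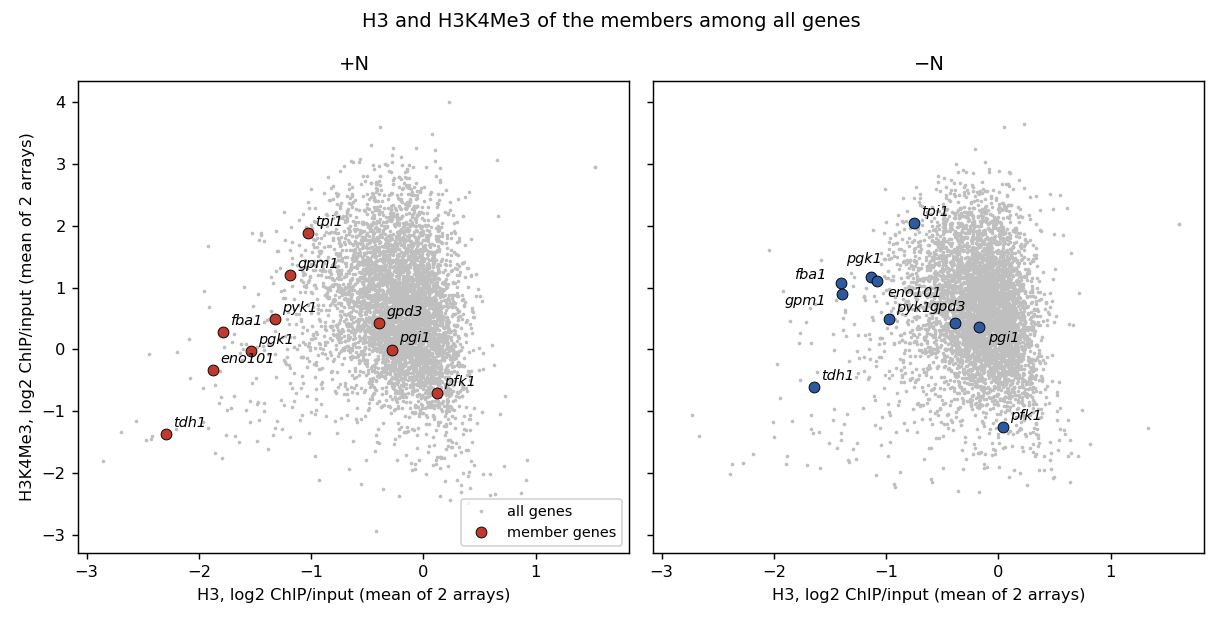
Mean H3 (x axis) against mean H3K4Me3 (y axis) of each gene in +N (left) and −N (right), both as log2 ChIP over input, mean of 2 arrays. Grey points are all 5056 genes and colored points the 10 glycolytic genes, of which *tdh1*, *fba1*, *eno101*, *pgk1*, *gpm1* and *pyk1* stand at the left edge of the cloud in both conditions and *pfk1* inside it.

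H3K4Me3 levels differed widely among the 10 genes. In −N, *tpi1* had the highest value, 2.04 ± 0.03 (SD, n = 2), and *pgk1*, *eno101* and *fba1* followed at 1.17 ± 0.24, 1.10 ± 0.03 and 1.07 ± 0.69. The arrays of these 3 genes overlapped. At the low end stood *tdh1*, at −0.61 ± 0.17, and *pfk1*, at −1.25 ± 0.11. In +N the order was different. *tpi1* was again highest at 1.88 ± 0.15, followed by *gpm1* at 1.2 ± 0.39, whereas *eno101* was at −0.34 ± 0.29 and *tdh1* at −1.38 ± 0.68.

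In +N relative to −N, H3K4Me3 was lower at 7 genes by the mean, and both +N arrays lay below both −N arrays at 5, *pgi1*, *tpi1*, *tdh1*, *pgk1* and *eno101*. Over all genes, 48.1% were lower by the mean and 15.7% lower without overlap. Both +N arrays lay above both −N arrays at 1 gene, *pfk1*, against 14.6% of all genes. The median difference was −0.26 over the 10 genes and 0.01 over all genes. For H3, 8 genes were lower by the mean, against 64.4% of all genes, and 4 without overlap, *pgi1*, *tdh1*, *eno101* and *pyk1*, against 21.5%. H3 was higher without overlap at *gpm1*, against 9.06% of all genes. The median H3 difference was −0.31 over the 10 genes and −0.05 over all genes. Nothing is read from these shares, since the contrast was known when the genes were chosen.

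Within slides, the median H3K4Me3 difference was −0.37 on slide 1 and −0.18 on slide 2, and 6 of the 10 genes were lower on both, against 30.1% of all genes. The median H3 difference was −0.50 on slide 1 and −0.11 on slide 2, and 6 genes were again lower on both, against 34.4% of all genes. Without the H3 +N array of replicate 1 the H3 median was −0.07, and without that of replicate 2 it was −0.56. Leaving out probes that were dim on any H3K4Me3 array turned the H3K4Me3 median of the 10 genes to 0.22 and moved that of all genes to 0.21.

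Across all genes, limma called none for either antibody at an adjusted p under 0.05 (0% of 5056 genes), with 143 genes for H3K4Me3 and 122 for H3 at an unadjusted p under 0.05. With the slide as a block, limma called 34 genes lower (0.672%) and 78 higher (1.54%) for H3K4Me3, and 3 lower (0.0593%) and 0 higher (0%) for H3.

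**Figure D2:**
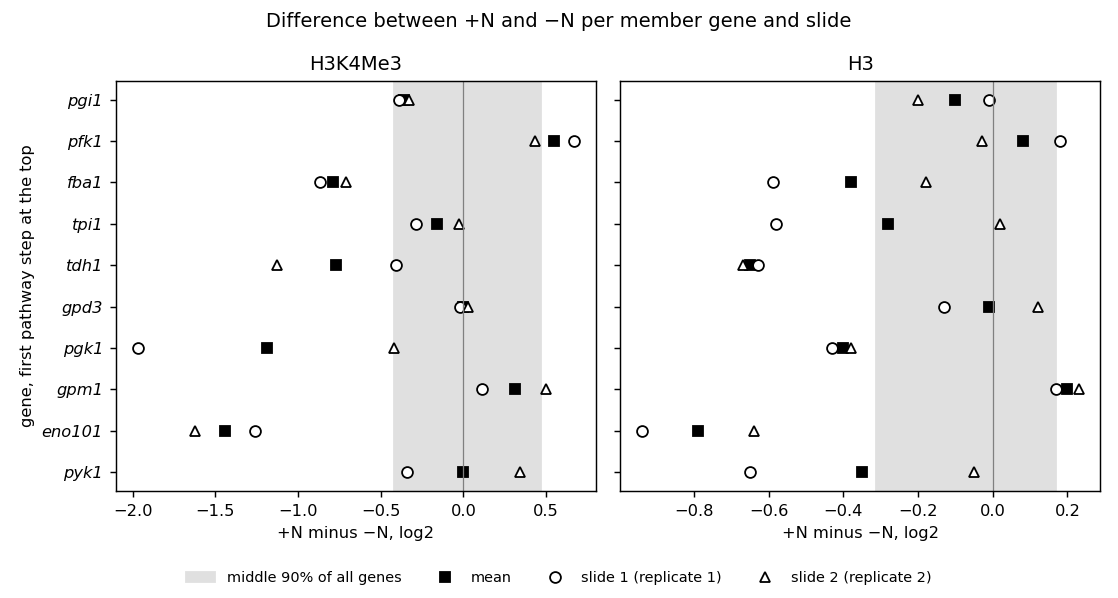
Difference between +N and −N in log2 units (x axis) for H3K4Me3 (left) and H3 (right) at each glycolytic gene (rows, in pathway order). Squares are the means, open circles slide 1 and open triangles slide 2. The grey band holds the middle 90% of all 5056 genes by their mean differences, not by those of single slides. For *eno101* both slides lie left of the band for both antibodies, whereas for *pyk1* and *gpd3* the H3K4Me3 differences of the slides lie on opposite sides of 0.

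Enolase, which converts 2-phosphoglycerate to phosphoenolpyruvate, had lower H3K4Me3 and lower H3 on both +N arrays than on both −N arrays. *eno101* lies on chromosome II, 2201196 to 2202652 on the plus strand. Its H3K4Me3 was −0.13 and −0.54 on the +N arrays, against 1.12 and 1.08 on the −N arrays. The groups did not overlap, and both +N arrays were below the array median while both −N arrays were above it. The difference was −1.44 log2 units, or 2.71-fold lower in +N, as seen on slide 1 (−1.26) and slide 2 (−1.62). Only the alcohol dehydrogenase gene *adh1* had a lower one among 5056 genes. H3 at *eno101* was −2.05 and −1.69 on the +N arrays, against −1.12 and −1.05 on the −N arrays. That was a difference of −0.79, with −0.94 on slide 1 and −0.64 on slide 2, again without overlap. In the −N arrays of *eno101*, H3K4Me3 extended over the gene to its 3′ end. The 5 probes of the gene body averaged 0.23 ± 0.08 in +N, against 1.94 ± 0.17 in −N (SD, n = 2 each). The probe 1522 bp from the 5′ end, just beyond the annotated 3′ end, was well above background on all 4 arrays and read −2.09 and 0.39 in +N, against 2.43 and 3.11 in −N. At the next probe, 1750 bp from the 5′ end, the groups overlapped, with −0.42 and −0.93 in +N, against 0.23 and −0.43 in −N. Upstream of *eno101* the 2 probes averaged −1.33 ± 1.78 in +N and −1.23 ± 0.56 in −N. The *eno101* probe at 1064 bp, well above background on 1 of 4 arrays, read 3.04 and −0.57 in +N, against 2.86 and 1.70 in −N. Over the 3 probes that were bright on all 4 arrays, the difference was −2.39.

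Phosphoglycerate kinase catalyzes the first ATP-yielding step. *pgk1* lies on chromosome II, 4157821 to 4159461 on the minus strand. Its H3K4Me3 was −0.63 and 0.58 on the +N arrays, against 1.34 and 1.00 on the −N arrays. The groups did not overlap, but the +N arrays stood further apart than the nearer pair of +N and −N arrays. The difference was −1.19, or −1.97 on slide 1 and −0.42 on slide 2, and was the third lowest of all genes. Without the +N array of replicate 1 it was −0.59. H3 at *pgk1* was −1.86 and −1.22 in +N, against −1.43 and −0.84 in −N, with overlap, a difference of −0.40. By the mean, the difference in H3K4Me3 was widest near the 5′ end of *pgk1* and smallest at the last probe in the gene. At the probe 41 bp downstream of the *pgk1* 5′ end, values were −2.01 and 0.12 in +N, against 2.63 and 2.56 in −N, and at 206 bp they were 0.49 and 1.04 in +N, against 2.57 and 1.97 in −N. Both probes were well above background on 3 of 4 arrays. In a window of 250 bp before and 750 bp after the 5′ end (3 probes), the *pgk1* difference was −2.34, with −3.03 on slide 1 and −1.66 on slide 2. Only 1 of the 8 *pgk1* probes was well above background on all 4 arrays. It lies 2066 bp from the 5′ end, beyond the 3′ end, and alone gave a difference of 0.30, where the median of all genes without dim probes was 0.21.

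Glyceraldehyde-3-phosphate dehydrogenase is encoded by *tdh1* (chromosome II, 2807595 to 2809051, plus strand) and *gpd3* (chromosome II, 578117 to 580056, plus strand). The probes in *tdh1* shared 50.0% to 78.7% of their bases with the best ungapped match at *gpd3*, and those in *gpd3* 46.7% to 84.4% with *tdh1*, and the values of the pair were unlike. H3K4Me3 at *tdh1* was −0.89 and −1.86 in +N, against −0.49 and −0.73 in −N, all 4 below the array median, without overlap. The difference was −0.77 (slide 1, −0.41 and slide 2, −1.13), and without the +N array of replicate 2 it was −0.28. H3 was −2.40 and −2.19 in +N, against −1.77 and −1.52 in −N, also without overlap, a difference of −0.65 with −0.63 on slide 1 and −0.67 on slide 2. Over the 3 probes downstream of *tdh1*, H3K4Me3 averaged −1.48 ± 0.42 in +N, against 0.05 ± 0.21 in −N, and H3 −1.76 ± 0.15 in +N, against −0.92 ± 0.13 in −N. At the probe 1140 bp from the 5′ end, well above background on all arrays, H3K4Me3 was −0.56 and −1.58 in +N, against 1.75 and 0.66 in −N. There, H3 was −1.86 and −1.61 in +N, against −0.57 and 0.23 in −N. Near the *tdh1* 5′ end H3 was far lower, −4.04 and −2.89 in +N, against −3.89 and −2.24 in −N at 40 bp, where 2 of 4 spots were well above background. By contrast, *gpd3* had H3K4Me3 of 0.40 and 0.44 in +N, against 0.42 and 0.42 in −N, and its H3 was −0.54 and −0.25 in +N, against −0.41 and −0.37 in −N. For both antibodies the +N arrays lay on either side of the −N arrays, and the differences were 0.00 and −0.01. Its H3K4Me3 peaked at 590 bp, at 2.69 and 3.05 in +N, against 2.04 and 2.67 in −N.

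**Figure D3:**
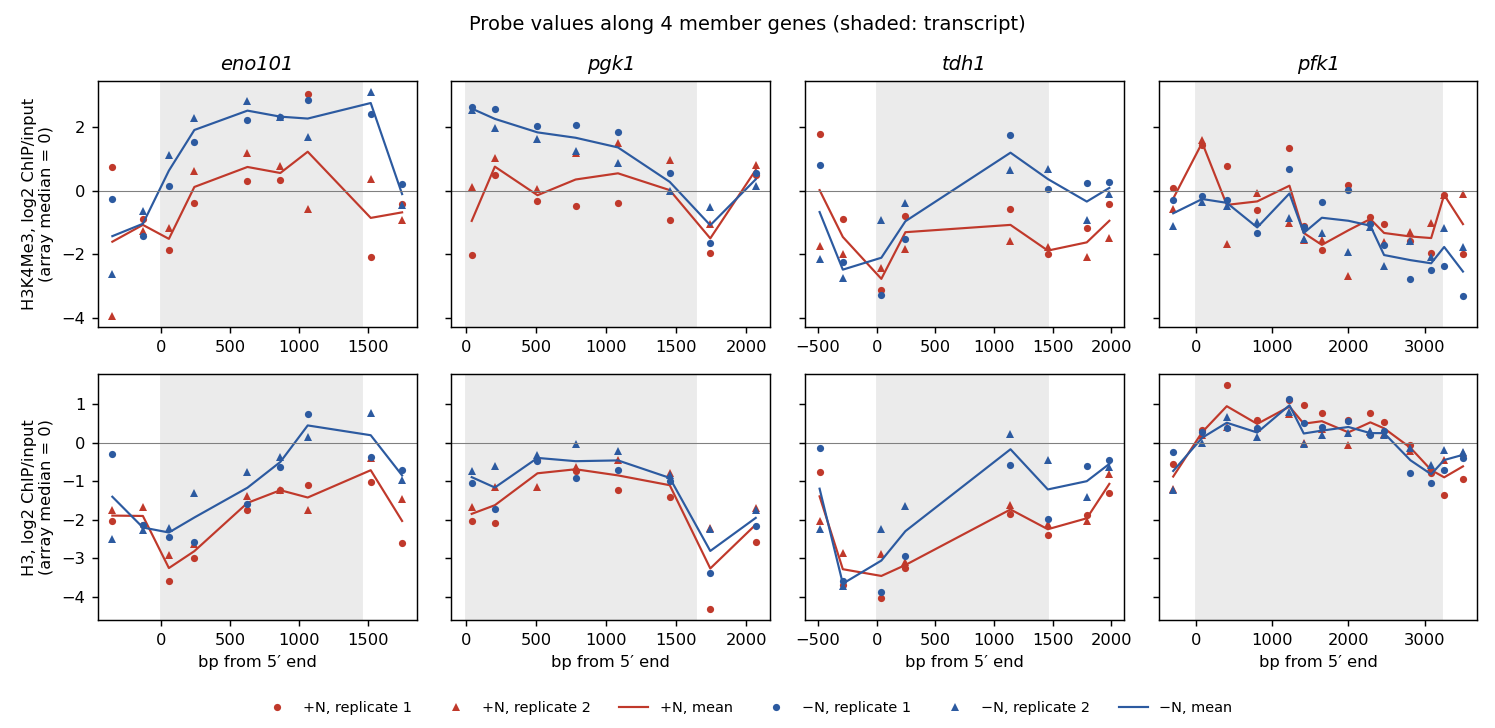
H3K4Me3 (top) and H3 (bottom), log2 ChIP over input, at each used probe (points) by distance from the annotated 5′ end in bp (x axis) at *eno101*, *pgk1*, *tdh1* and *pfk1*. Red is +N and blue −N, circles are replicate 1, triangles replicate 2, lines their mean, and the shading marks the transcript. At *eno101*, the probe at 1522 bp reads −2.09 and 0.39 in +N, against 2.43 and 3.11 in −N, and at *pfk1* the +N and −N arrays part at the probe 86 bp from the 5′ end.

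Fructose-bisphosphate aldolase splits fructose 1,6-bisphosphate into the 2 triose phosphates. At *fba1* (chromosome II, 1688321 to 1689599, plus strand), H3K4Me3 was −0.28 and 0.85 in +N, against 0.58 and 1.56 in −N. Over this window the slides differed more than the conditions did and the groups overlapped, but the difference was alike on the slides, −0.87 on slide 1 and −0.71 on slide 2 (mean −0.79). Without the −N array of replicate 2 or the +N array of replicate 1, the *fba1* difference was between −0.30 and −0.22. Over the 3 probes used within *fba1*, the groups did not overlap, with −0.15 and 0.87 in +N, against 1.37 and 2.12 in −N, a difference of −1.39. Of the 3 *fba1* probes that were bright on all arrays, the one in the gene, at 910 bp, differed by −0.86 and those in the flanks by 0.47 and 0.70, so that their mean was 0.10. H3 was −2.13 and −1.44 in +N, against −1.54 and −1.26 in −N, a difference of −0.38 with overlap. Triose phosphate isomerase interconverts the 2 triose phosphates. At *tpi1* (chromosome III, 939913 to 940869, plus strand), H3K4Me3 was 1.77 and 1.99 in +N, against 2.06 and 2.02 in −N, a difference of −0.16. The groups did not overlap. The *tpi1* difference was 0.29 with loess normalization and 0.20 around the 5′ end, where the median of all genes was 0.17 and 0.23. H3 at *tpi1* was −1.20 and −0.86 in +N, against −0.62 and −0.88 in −N, with a difference of −0.58 on slide 1 and 0.02 on slide 2.

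Glucose-6-phosphate isomerase forms fructose 6-phosphate. At *pgi1* (chromosome II, 3921659 to 3923580, minus strand), H3K4Me3 was −0.14 and 0.13 in +N, against 0.25 and 0.47 in −N, without overlap, a difference of −0.36. It was 0.31 without dim probes and 0.08 around the 5′ end, settings under which the median of all genes was 0.21 and 0.23. The difference came mostly from the 500 bp downstream, where the neighboring gene *noc4* is annotated, with −2.29 ± 0.16 in +N and −0.92 ± 0.40 in −N over 2 probes. Over the 6 probes in *pgi1* itself the values were 0.45 ± 0.21 in +N and 0.58 ± 0.10 in −N. H3 at *pgi1* was −0.25 and −0.31 in +N, against −0.24 and −0.11 in −N, a difference of −0.10.

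Phosphofructokinase carries out the committed step of the upper pathway, and *pfk1* (chromosome II, 2297164 to 2300391, minus strand) differed in the other direction. H3K4Me3 was −0.51 and −0.90 in +N, against −1.18 and −1.33 in −N. All 4 arrays were below the array median and did not overlap. The difference was 0.55 (0.67 on slide 1, 0.43 on slide 2), which ranked 162 from the top of 5056 genes. H3 at *pfk1* was 0.25 and −0.02 in +N, against 0.07 and 0.01 in −N. Of the 14 *pfk1* probes, 1 was well above background on all 4 H3K4Me3 arrays. It lies 86 bp downstream of the 5′ end, and read 1.45 and 1.59 in +N, against −0.15 and −0.36 in −N, a difference of 1.78. At this probe H3 was 0.34 and 0.21 in +N, against 0.28 and −0.02 in −N. The 2 probes downstream of *pfk1*, which overlap the neighboring gene *uba2*, averaged −0.59 ± 0.67 in +N and −2.15 ± 0.96 in −N. The remaining *pfk1* probes in the gene, between 408 and 3082 bp, lay between −2.67 and 1.35 in +N and between −2.77 and 0.68 in −N, and 3 of them were well above background on none of the 4 arrays.

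Phosphoglycerate mutase moves the phosphate of 3-phosphoglycerate, and pyruvate kinase yields pyruvate and ATP. Their genes, *gpm1* (5173864 to 5174654, minus strand) and *pyk1* (3844743 to 3846675, minus strand, both by the ASM294v3 annotation), lie in the part of chromosome I where the probe positions run 6151 bp behind that assembly, and they were reached through this shift. At *gpm1*, H3K4Me3 was 0.92 and 1.47 in +N, against 0.81 and 0.97 in −N, with overlap, a difference of 0.31. Of the 6 *gpm1* probes, 2 lay in the neighboring gene *mug106*. The H3K4Me3 difference was 0.43 over the 2 probes in *gpm1*, 0.78 over the 2 downstream and −0.29 over the 2 upstream. H3 was −1.30 and −1.08 in +N, against −1.48 and −1.30 in −N. The difference was 0.20, with 0.17 on slide 1 and 0.23 on slide 2, on top of a level with 1.29% of genes below it. Over the 2 probes in *gpm1* itself, H3 was −0.20 ± 0.25 in +N and −0.28 ± 0.10 in −N, with 22.1% of genes below it. At *pyk1*, H3K4Me3 was 0.16 and 0.82 in +N, against 0.50 and 0.48 in −N, and the slides gave −0.34 and 0.34. Around the 5′ end (2 probes) the *pyk1* groups did not overlap, with 1.75 and 1.67 in +N, against 2.58 and 2.57 in −N, a difference of −0.86. In the same window, H3 was −1.85 and −1.80 in +N, against −0.72 and −1.2 in −N, also a difference of −0.86. Both probes were well above background on 2 of the 4 H3 arrays. Within *pyk1*, the probe 38 bp from the 5′ end read 1.47 and 0.92 in +N, against 2.20 and 2.56 in −N, but the one at 1136 bp read 2.06 and 1.77 in +N, against 1.52 and 0.17 in −N. Over the gene and its flanks, H3 at *pyk1* was −1.65 and −1.0 in +N, against −1.0 and −0.96 in −N, with a difference of −0.65 on slide 1 and −0.05 on slide 2.

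**Figure D4:**
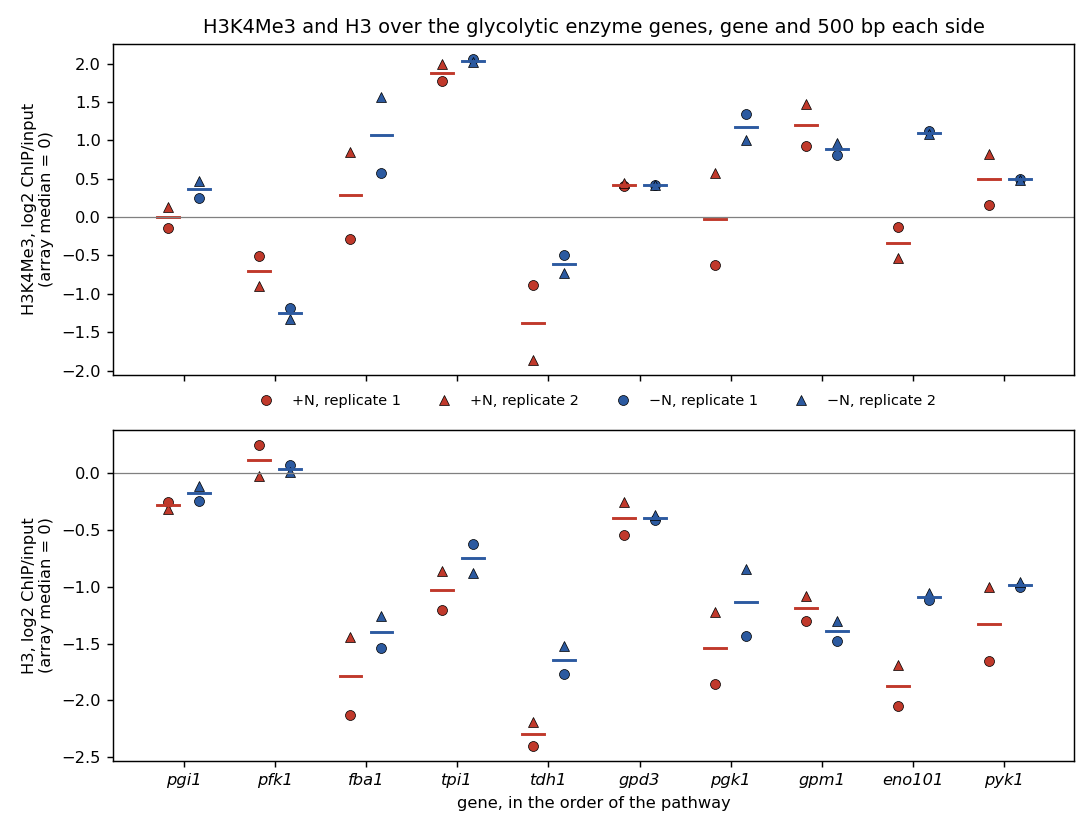
H3K4Me3 (top) and H3 (bottom) of each glycolytic gene, log2 ChIP over input with the array median at 0 (y axis), on every array. Red is +N (left of each pair) and blue −N, circles are replicate 1, triangles replicate 2, and bars the mean of 2 arrays. The H3K4Me3 groups are furthest apart at *eno101*, where the +N arrays lie at −0.13 and −0.54 and the −N arrays at 1.12 and 1.08.

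Along the genes, the 10 together were below the average gene around the 5′ end and, for H3K4Me3, above it further into the gene. In the first 250 bp of the transcript (11 probes), mean H3 was −2.22 in +N and −1.68 in −N, against −0.46 in +N and −0.44 in −N over all genes. There the mean H3K4Me3 of the glycolytic genes was 0.02 in +N and 1.04 in −N, against 2.66 in +N and 2.28 in −N over all genes. In the next 250 bp (7 probes), H3K4Me3 of the glycolytic genes rejoined the average gene, at 2.26 in +N and 2.37 in −N against 2.44 and 2.12. From 750 to 1000 bp (7 probes), it was 0.99 in +N and 1.58 in −N, while the average gene had come down to −0.07 in +N and 0.14 in −N. Between 250 bp upstream and the 5′ end (5 probes), H3 was −2.03 in +N and −2.13 in −N, against −1.0 and −0.88. Different genes fill the bins, so the shape is that of the probes available.

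**Figure D5:**
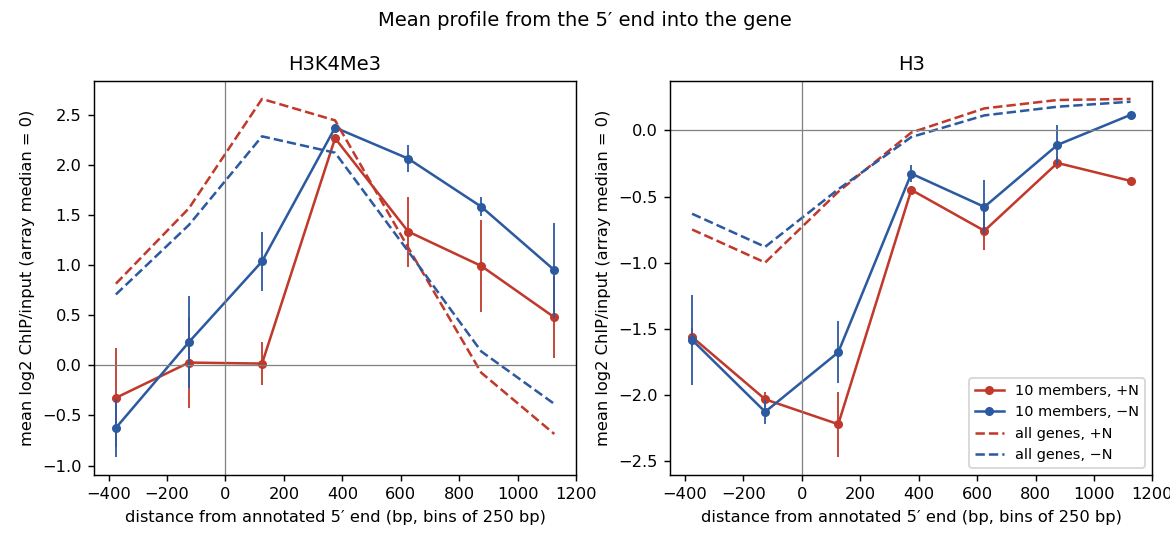
Mean H3K4Me3 (left) and H3 (right), log2 ChIP over input (y axis), in bins of 250 bp from 500 bp upstream of the annotated 5′ end into the gene (x axis). Solid lines with points are the 10 glycolytic genes, with vertical bars joining the 2 replicates, and dashed lines all genes, in red for +N and blue for −N. In the first 250 bp the glycolytic genes have H3K4Me3 of 0.02 in +N and 1.04 in −N, both below the averages of all genes.

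With each channel centered on its own array median, the input of the 10 genes differed between +N and −N by −0.17 to 0.12 on the H3K4Me3 arrays and by −0.24 to 0.06 on the H3 arrays. The ChIP signal differed by −1.49 to 0.48 with the H3K4Me3 antibody and by −0.97 to 0.11 with the H3 antibody. At *eno101* the input differed by −0.11 and the ChIP signal by −1.49 on the H3K4Me3 arrays, and by −0.24 and −0.97 on the H3 arrays. At *gpm1*, on the H3 arrays, it was the input that differed, by −0.22, and the ChIP signal differed by 0.03.

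Since H3 differed as well, H3K4Me3 was also taken relative to H3 of the same condition and slide. On this scale (log2 H3K4Me3 minus log2 H3), both +N values lay below both −N values at *pgi1*, *pgk1* and *eno101*, against 12.2% of all genes, and above them at *pfk1* and *pyk1*, against 23.7%. At *eno101* the values were 1.92 and 1.15 in +N, against 2.24 and 2.14 in −N, a difference of −0.65, beside −1.44 for H3K4Me3 alone. At *pgk1* they were 1.22 and 1.80 in +N, against 2.76 and 1.84 in −N, a difference of −0.79. At *tdh1* they were 1.51 and 0.33 in +N, against 1.29 and 0.79 in −N, and the groups overlapped, with a difference of −0.12. At *pfk1* they were −0.76 and −0.88 in +N, against −1.25 and −1.34 in −N, a difference of 0.47, and at *pyk1* they were 1.81 and 1.82 in +N, against 1.5 and 1.44 in −N, a difference of 0.35. The median difference was −0.05 over the 10 genes and 0.07 over all genes.

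Genes of neighboring pathways were taken from 6 lists with 41 genes, all with a value. The lists were chosen with earlier results of these data known. The p-values given below for list genes therefore describe the fit and are no test of these genes. The limma fit without a block called none of them for either antibody, as it called no gene at all. Ethanol fermentation held the widest differences. *adh1*, the main alcohol dehydrogenase, had H3K4Me3 of −1.09 and −0.63 in +N, against 0.50 and 0.76 in −N, a difference of −1.49 (limma adjusted p = 1 without the slide block and 0.000102 with it), the lowest of 5056 genes. Its H3 was −2.12 and −1.52 in +N, against −1.60 and −1.13 in −N, with overlap. The pyruvate decarboxylase gene *pdc101* had H3K4Me3 of −0.09 and 0.06 in +N, against −0.57 and −1.11 in −N, a difference of 0.82 (limma adjusted p = 1 without the block and 0.0284 with it). Over the 6 fermentation genes the median H3K4Me3 difference was 0.02, and the H3 differences ran between −0.46 at *adh1* and 0.15 at *adh4*.

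Among *hxk1*, *hxk2* (hexokinases), *fbp1* (fructose-1,6-bisphosphatase) and *eno102* (the second enolase gene), H3K4Me3 differences ran between −0.25 at *eno102* and 0.36 at *hxk1* (median −0.15). H3 was −0.32 and −0.24 in +N, against −0.62 and −0.70 in −N at *fbp1*, a gluconeogenic gene, and its difference of 0.38 was the highest of the 4 and the lowest was −0.33 at *hxk2*. In the pentose phosphate pathway (5 genes, median −0.10), the lowest H3K4Me3 difference was −0.60 at *tkt1* (transketolase) and the highest 0.10 at *tal1* (transaldolase). For H3 in that pathway the lowest was −0.34 at *gnd1* and the highest 0.10 at *zwf1*. Over the 6 genes of glycerol metabolism the H3K4Me3 median was 0.10, between −0.22 at *gpd1* and 0.43 at *gld1*, and the H3 difference ran between −0.06 at *gpd2* and 0.36 at *gld1*. Over the 17 genes of pyruvate dehydrogenase and the tricarboxylic acid cycle the medians were −0.05 for H3K4Me3 and −0.06 for H3, near those of all genes. Their H3K4Me3 differences ran between −0.32 at *cit1* and 0.32 at *idh1*, and their H3 differences between −0.37 at *sdh4* and 0.19 at *sdh1*. The 3 trehalose genes had H3K4Me3 differences between −0.25 at *tpp1* and −0.02 at *tps1*, and H3 differences between −0.28 at *tps1* and 0.03 at *tpp1*.

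Over the 8 arrays, with the mean of each antibody removed, 8 of the 10 genes correlated positively with the mean of the other 9, between 0.40 at *tdh1* and 0.83 at *pgk1*. *gpm1* (−0.28) and *pfk1* (−0.92) did not. These are descriptions over 8 arrays that share slides. The share of all genes with a positive correlation is not given here, so nothing is read from the count. Among 4511 other genes with enough spread, those most like the mean of the 10 were *SPBC1711.09C* (annotated as a SNARE-associated protein), *vip1* (an RNA-binding protein), *sfp1* (a transcription factor), *ntr2* (a spliceosome disassembly protein) and *tel2* (a subunit of the TTT complex), with r of 0.98 to 0.99. Their H3K4Me3 differences were between −0.57 and −0.22, and their H3 differences between −0.40 and −0.16.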

How the data were processed

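H3 and H3K4Me3 ChIP DNA, amplified with T7 RNA polymerase, was hybridized against input DNA on 8 Agilent 2-color arrays. The intensity values deposited by the authors were processed signals of Agilent Feature Extraction, background-subtracted with a spatial detrend and dye-normalized by 1 linear factor per channel. A deposited table of log2 ratios, which equaled red over green of these processed signals and was not centered, served as an alternative. Log2 ratios were centered on each array's median. Of 42641 nuclear probes, 5402 marked as outliers on any array were left out, and 37239 were used. Saturated spots were kept.

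For the probe positions, the genome build is not given in the sources used here. Against ASM294v3, probe length and local GC content corresponded in 43 of 50 segments of 250 kb as given. In the other 7, on chromosome I beyond position 3789918, they did so after adding 6151 bp. Gene names and limits came from the RefSeq annotation of that assembly. Genes with a value numbered 5056.

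+N and −N were compared per antibody across all genes with limma 3.58.1 in R 4.3.3 (lmFit, eBayes, two-sided, Benjamini-Hochberg adjustment). The same fit was run on artificial data without a slide effect, where it returned the mean size of the changes added. That mean checks the code and does not show how many changed genes the fit would call. Members and lists were chosen with earlier results of these data known, and the 10 members have no p-values. Named genes were all 10 members, the list genes past the threshold or highest and lowest in each list, and the 5 genes with the highest Pearson r to the members' mean over the arrays. Alternatives covered background correction (normexp, on median signals since no mean signals were used here, with an offset of 50), loess, quantile normalization, centering, dim and outlier probes, the gene window, the authors' table, the shifted part of chromosome I, each replicate and the slide. The slide, read from the file headers, carries the same number as the replicate. The number of arrays limits the precision.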

Additional observations from a re-analysis of the deposited data

How the results depend on the processing

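The H3K4Me3 difference kept its sign at *eno101* and *tdh1* (lower) and at *pfk1* and *gpm1* (higher) under every alternative run. The H3 difference did so at *fba1*, *tdh1*, *pgk1*, *eno101* and *pyk1* (lower) and at *gpm1* (higher). These signs are against 0, not against the median of all genes. At *gpm1* the H3K4Me3 difference was 0.08 around the 5′ end, where the median of all genes was 0.23. Without dim probes, the H3 difference was −0.04 both at *pyk1* and for the median of all genes. H3K4Me3 at *eno101* ran between −2.39 and −0.68 over 15 alternatives, the smallest with loess. At *pgk1* it ran between −2.34 and 0.30, above 0 only where dim probes were left out, which kept 1 probe. The median H3K4Me3 difference over the 10 genes was 0.22 without dim probes, where that of all genes was 0.21. Of the 10 genes, 5 were lower without overlap for H3K4Me3 (15.7% of all genes). There were 2 with loess (4.49% of all genes), with centering on the 10th percentile (3.5%) and without dim probes (4.6%), and 3 with no centering (11.8%), with outlier spots kept (16.5%), around the 5′ end (4.17%) and with the authors' table (16.5%). For H3 there were 4 (21.5% of all genes), but 2 with background-subtracted signals (21.4%) or around the 5′ end (13.5%). Centering on the 10th percentile moved the median of all genes to 0.24 for H3K4Me3 and 0.12 for H3, loess moved it to 0.17 for H3K4Me3, and the 5′ window to 0.23. The limma calls numbered 0 for both antibodies, but for H3K4Me3 112 with the replicate block, 3 without dim probes and 2 around the 5′ end, and for H3 3 with the replicate block and 1 each with quantile normalization and with centering on the 10th percentile. Deviations of same-numbered arrays from their group means correlated over genes at 0.63 for H3K4Me3 and 0.25 for H3, and the labels do not say that the number pairs them. Leaving out 1 array at a time gave 0 to 1 calls for each antibody, 5 to 8 of the 10 genes lower without overlap for H3K4Me3 (22.9% to 45.6% of all genes) and 5 to 8 for H3 (33.4% to 56.7% of all genes), and medians between −0.31 and −0.14 for H3K4Me3 and between −0.56 and −0.07 for H3. With 1 array left, groups fail to overlap more often at all genes. The cause of the other shifts was not tested. Spots near background on slide 1 limit what can be said of the lowest ratios.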
